A study of Mus musculus with 16 samples.

Results

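Trp53, the gene of the tumour suppressor p53, was described together with 9 genes that p53 is known to activate: Cdkn1a, Mdm2, Ccng1, Zmat3, Phlda3, Trp53inp1, Eda2r, Btg2 and Gadd45a. The 10 genes were chosen by symbol and found by their Ensembl identifiers among the 33072 genes of the table, and all 10 were present. In GRCm38 Trp53 (ENSMUSG00000059552) lies on chromosome 11 from 69580359 to 69591873, Cdkn1a (ENSMUSG00000023067) on chromosome 17 from 29090976 to 29100727 and Mdm2 (ENSMUSG00000020184) on chromosome 10 from 117688875 to 117710758, and all 10 members are protein-coding genes. RNA was sequenced from 2 mouse mammary carcinoma lines of the BALB/c strain, metastatic 4T1 and non-metastatic 67NR, which were derived from the same spontaneous tumor. Each line was treated for 24 h with vehicle or with 15 µM CIX, a competitive inhibitor of cytosolic phospholipase A2α. With 4 biological replicates for each line and treatment, 16 samples were measured, and they stand for 2 lines from 1 tumor. No knockout, transgene or irradiation was part of the design, so that both lines were measured without a DNA-damaging agent.

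p53 is a transcription factor that accumulates after DNA damage and other stresses and switches on genes for cell cycle arrest, repair and cell death. Mdm2, itself a target, is the ubiquitin ligase that marks p53 for degradation, so that p53 and Mdm2 form a negative feedback loop. In tumor cells the activity of p53 is set mainly by the stability and the mutations of the protein, which were not measured here, and many of the targets also have inputs that do not need p53.

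p53 binds DNA as a tetramer, and its response elements are made of pairs of a 10-base motif, the p53 consensus decamer. The promoters of the members are shown here because they show which of the genes carry such letters close to the start site. RefSeq windows of GRCm38.p6, reaching from 250 bases before to 50 bases after a start site, were found for 8 of the 10 members, in 9 windows. Zmat3 and Trp53inp1 had no entry. An exact decamer, searched on both strands, stood in 5 of the 9 windows and in 2745 of all 32851 windows (8.36%). A pair of decamers at most 13 bases apart stood in the window of Cdkn1a and in 24 of all windows (0.0731%). The stretches that hold a match are written 5′ to 3′ along the gene's strand, with the decamers in capitals; they are at chr17:29090849-29090978 on the plus strand for Cdkn1a, chr11:69580259-69580318 on the plus strand for Trp53, chr10:117710909-117710968 on the minus strand for Mdm2, chr11:40755437-40755496 on the minus strand for Ccng1, and chr6:67037418-67037477 on the minus strand for Gadd45a.
Cdkn1a: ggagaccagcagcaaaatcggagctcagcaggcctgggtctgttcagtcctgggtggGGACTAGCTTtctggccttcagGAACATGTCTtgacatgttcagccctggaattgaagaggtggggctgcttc
Trp53: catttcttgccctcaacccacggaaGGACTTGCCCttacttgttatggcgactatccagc
Mdm2: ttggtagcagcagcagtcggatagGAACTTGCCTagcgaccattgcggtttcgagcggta
Ccng1: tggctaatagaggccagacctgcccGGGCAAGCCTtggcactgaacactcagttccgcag
Gadd45a: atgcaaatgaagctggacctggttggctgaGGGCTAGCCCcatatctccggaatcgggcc

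Counted from the start site, the decamers of Cdkn1a began at -73 and -51 and were 12 bases apart, and the 10 bases that followed the one at -51 matched the consensus at 9 of 10 positions. The decamer began at -75 in Trp53, -186 in Mdm2, -185 in Ccng1 and -40 in Gadd45a. These matches are letters in a fixed window, no binding was measured, and sites in introns or farther upstream were not searched.

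The total estimated count per sample was between 21715700 and 29450629, and 3 counts, taken as the lowest level that counts as detected, corresponded to between 0.107 and 0.137 CPM (the count relative to library size, here scaled by the TMM method over all 16 samples). A library was said to stand apart where it was farthest from its group, past Dixon's limit for 4 samples, in more than 3% of the genes tested. This held for vehicle 67NR sample 13 with 6.35% of genes, CIX 4T1 sample 4 with 4.36% and vehicle 4T1 sample 3 with 3.38%, while the other 13 samples had between 0.514% and 1.8%. Values without these libraries are given beside those results that they could move. The 4T1 cells expressed all 7 epithelial markers looked at, with a summed level of 4024 to 4940 CPM. The 67NR cells, labelled as the same carcinoma, held 1.32 to 6.89 CPM of the same 7 genes and at most 0.317 CPM of Epcam, so that the defining epithelial markers were near 0 in this line. Markers of leukocytes summed to at most 2.15 CPM and markers of endothelial cells to at most 3.21 CPM in any sample. In such bulk samples fewer cells of a type and less RNA per cell cannot be told apart.

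Trp53 itself was the first gene examined. The level was 225, 245, 248 and 232 CPM in the vehicle 67NR samples and 193, 173, 194 and 191 CPM in the CIX 67NR samples. It was 43.8, 39.0, 30.8 and 40 CPM in vehicle 4T1 cells and 36.7, 32.6, 33.5 and 34.8 CPM in CIX 4T1 cells. Every 67NR sample was thus above every 4T1 sample, and within 67NR the CIX samples lay below all vehicle samples. Trp53 shared 10.1% of its 31-base words with other genes, chiefly the pseudogene Trp53-ps, which was assigned 0 or 1 count in a sample.

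The targets with a role in cell cycle arrest were taken next. Cdkn1a, which encodes the cyclin-dependent kinase inhibitor p21, was at 224, 258, 216 and 254 CPM in vehicle 67NR and at 226, 234, 250 and 288 CPM in CIX 67NR cells. In 4T1 cells it was at 135, 60.3, 52.1 and 71.8 CPM with vehicle and at 43.4, 18.8, 17.7 and 19.5 CPM with CIX. The 4T1 treatment groups did not overlap, and samples 3 and 4 were each the highest of their group. Ccng1, which encodes cyclin G1, was at 171 to 202 CPM in vehicle 67NR, 146 to 184 CPM in CIX 67NR, 32.0 to 35.1 CPM in vehicle 4T1 and 27.7 to 47.5 CPM in CIX 4T1 cells. Btg2, an antiproliferative gene, was low throughout, at 6.00 to 8.27, 7.61 to 12.7, 3.44 to 5.35 and 2.10 to 8.60 CPM in the same 4 groups. Gadd45a, a gene of growth arrest and DNA repair, went the other way between the lines. It was at 28.8, 21.0, 24.6 and 24.6 CPM in vehicle 67NR and at 43.5, 37.7, 39.1 and 49.9 CPM in CIX 67NR cells. In 4T1 cells it was at 49.7, 81.6, 105 and 84.5 CPM with vehicle and at 49.8, 160, 193 and 160 CPM with CIX. Samples 3 and 4 of 4T1 were almost equal and were the lowest of their groups, while the other 3 CIX samples were above all vehicle samples.

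The feedback gene Mdm2 was at 262, 232, 220 and 245 CPM in vehicle 67NR and at 306, 306, 284 and 399 CPM in CIX 67NR cells. It was at 137, 136, 126 and 127 CPM in vehicle 4T1 and at 77.0, 91.2, 117 and 83.5 CPM in CIX 4T1 cells. No treatment group of Mdm2 overlapped the other of its line, and the order of the treatments was opposite in the lines.

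Of the genes with other roles, Phlda3, a PH-domain protein that restrains AKT, was at 109, 131, 108 and 100 CPM in vehicle 67NR and at 114, 101, 107 and 110 CPM in CIX 67NR cells. It was at 6.96, 4.59, 5.16 and 5.30 CPM in vehicle 4T1 and at 16.0, 9.78, 10.2 and 8.97 CPM in CIX 4T1 cells, so that the CIX samples lay above the vehicle samples but far below 67NR. Trp53inp1, a stress protein that acts in autophagy and cell death, was the tested member with the smallest difference between the vehicle groups. It was at 21.4, 19.6, 21.5 and 23.4 CPM in vehicle 67NR and at 25.5, 26.3, 24.4 and 33.4 CPM in CIX 67NR cells. In 4T1 cells it was at 22.5, 25.6, 23.4 and 28.7 CPM with vehicle and at 16.3, 12.5, 18.5 and 16.7 CPM with CIX, and the treatment groups overlapped in neither line. Zmat3, an RNA-binding zinc finger protein, was at 82.4 to 99.7 and 80.1 to 105 CPM in vehicle and CIX 67NR cells and at 21.8 to 24.0 and 17.9 to 25.2 CPM in vehicle and CIX 4T1 cells. Eda2r, a receptor of the TNF receptor family, was at 40.7 to 49.1 CPM in vehicle and 46.1 to 56.8 CPM in CIX 67NR cells, with 989 to 1304 counts a sample. In 4T1 cells it had 1 count in vehicle sample 3, 6 counts (0.214 CPM) in CIX sample 12 and 0 counts in the other 6 samples, so that it was at or below the 3-count floor in 7 of 8 samples.

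**Figure D1:**
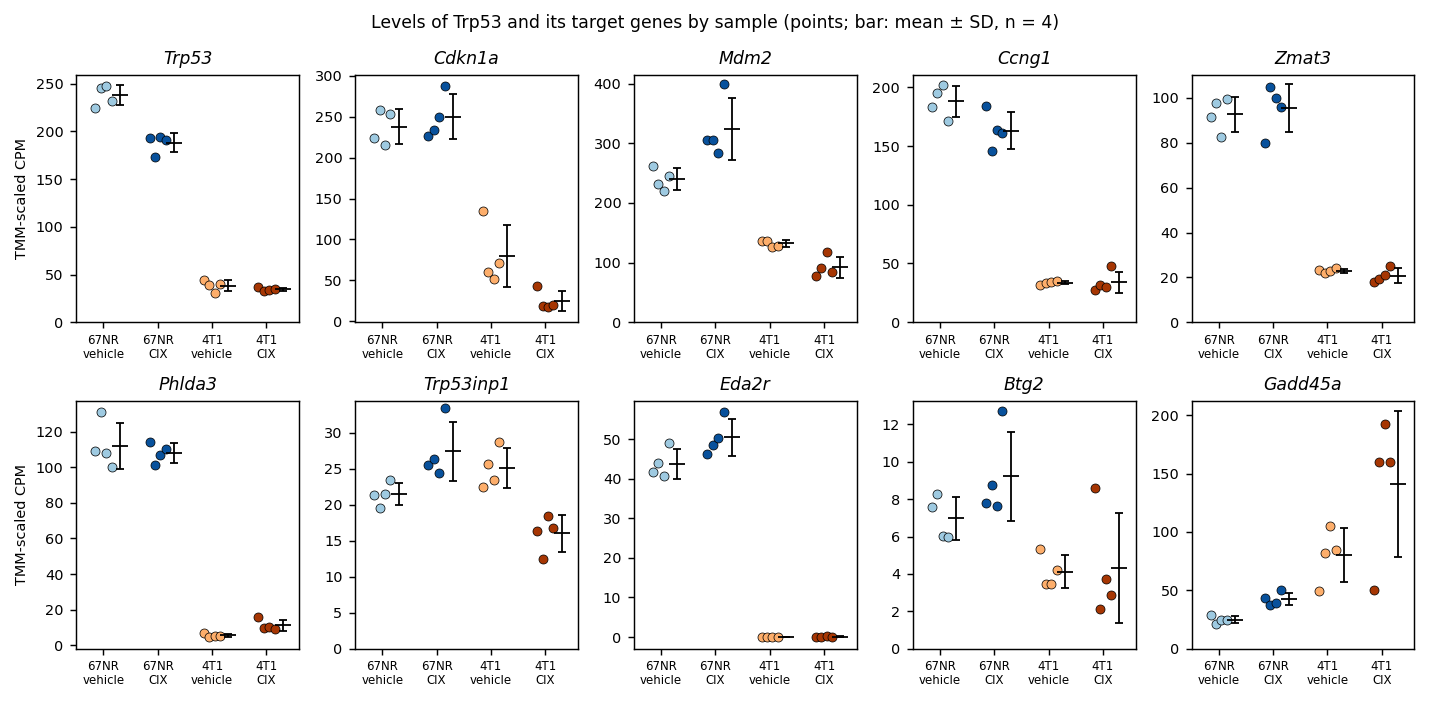
Level of each member in TMM-scaled CPM (vertical axes, each from about 0 and with a scale of its own) in the 4 samples of each group (points), with the mean ± SD beside them. All 67NR points lie above all 4T1 points for Trp53, Cdkn1a, Mdm2, Ccng1, Zmat3, Phlda3 and Eda2r, while the vehicle groups lie in the opposite order for Gadd45a.

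On the TPM scale (approximated here from the counts and transcript lengths), which allows levels to be compared between genes, Cdkn1a was the highest member in vehicle 67NR cells with 211 ± 16.2 TPM (SD, n = 4), followed by Mdm2 with 178 ± 12.3 and Trp53 with 163 ± 11.2. In vehicle 4T1 cells Gadd45a was the highest with 145 ± 39.7 TPM, followed by Mdm2 with 104 ± 6.09 and Cdkn1a with 75.3 ± 35.5, and Trp53 was at 28.1 ± 4.62 TPM. The order at the top of the list therefore differed between the lines, with Gadd45a at 42.2 ± 5.57 TPM in vehicle 67NR cells.

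The first comparison asked how far the lines differed before any treatment. In vehicle 4T1 cells Trp53 and 5 of its targets were lower than in vehicle 67NR cells, and Gadd45a was higher. By limma-voom, at the study's limit of an adjusted p below 0.001, 7 of the 9 members tested were called, 6 of them lower and 1 higher. Of all 11058 genes tested 40.0% were called, 19.6% lower and 20.4% higher. Of the tested members Phlda3 had the widest difference, with a log2 fold change of -4.36 ± 0.16 (SE, adjusted p = 1.07e-07), which is 20.49-fold lower. Trp53 was 6.27-fold lower (log2 fold change -2.65 ± 0.11, adjusted p = 1.91e-07) and Ccng1 was 5.61-fold lower (-2.49 ± 0.078, adjusted p = 6.26e-08). Zmat3 was 4.04-fold lower (-2.02 ± 0.10, adjusted p = 4.3e-07). Cdkn1a was 3.21-fold lower (-1.68 ± 0.26, adjusted p = 0.000318) and Mdm2 was 1.83-fold lower (-0.88 ± 0.082, adjusted p = 1.37e-05). Gadd45a was 3.12-fold higher (1.64 ± 0.22, adjusted p = 0.00016). Btg2 passed only the wider limit of 0.05, which 67.4% of all genes tested passed (33.3% higher and 34.1% lower), with -0.77 ± 0.20 and an adjusted p of 0.00645. Trp53inp1 did not pass either limit, with 0.21 ± 0.11 and an adjusted p of 0.127.

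The median log2 fold change of the 9 members between the lines was -1.68, and that of all genes tested was -0.0098. The groups did not overlap for 8 of the 9 members, 7 lower and 1 higher, and for 61.6% of all genes tested, 30.2% lower and 31.3% higher. Eda2r was not tested, because the filter left out genes below 1 TPM in more than 3 samples, and its counts were at most 1 in vehicle 4T1 against at least 989 in vehicle 67NR samples. The call of Cdkn1a was lost at 0.001 without vehicle 67NR sample 5 (adjusted p = 0.00121) and without vehicle 4T1 sample 7 (0.00148) or 15 (0.00152), over a range of 6.26e-06 to 0.00152 when each sample was left out in turn. Without samples 3 and 13, which stood apart, 7 members were called at 0.001, next to 38.0% of all genes tested. Cdkn1a was then at -1.93, Gadd45a at 1.86 (adjusted p = 4.37e-05), and Trp53inp1 passed 0.05 at 0.31 (adjusted p = 0.0403).

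**Figure D2:**
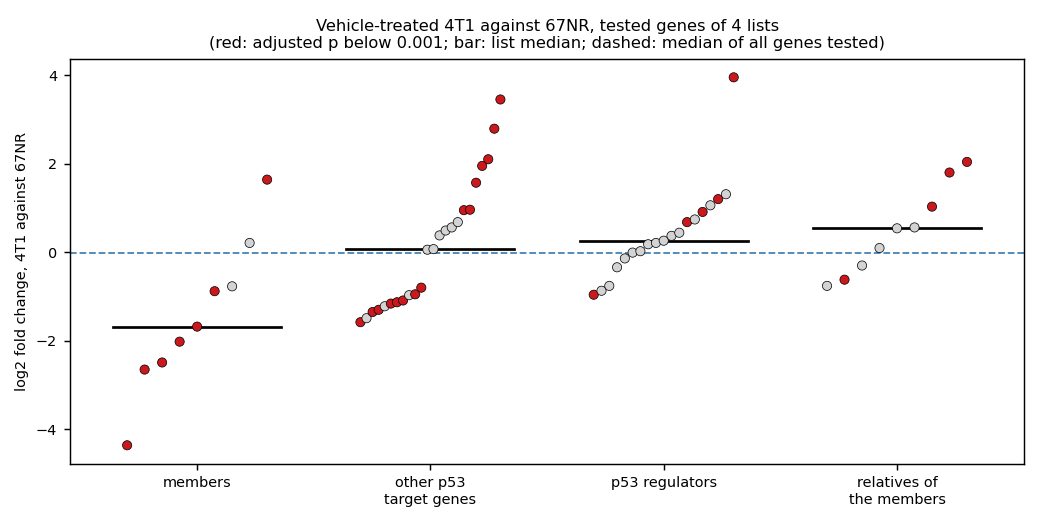
Log2 fold change of vehicle 4T1 against vehicle 67NR cells (vertical axis) for the tested genes of 4 lists (one point a gene, sorted, red where adjusted p is below 0.001), with the median of each list (bar) and of all genes tested (dashed line). The members have a median of -1.68, and the medians of the other target genes, the regulators and the relatives are 0.064, 0.26 and 0.54.

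Other genes of the pathway lay to both sides, and their counts are read beside the 20.4% of all genes called higher and the 19.6% called lower. Among 30 other known p53 target genes, 24 were tested between the vehicle groups, of which 7 were called higher and 8 lower in 4T1 at 0.001, with a median of 0.064. Among 20 regulators of p53 (kinases, ubiquitin ligases, cofactors and the Arf locus) 19 were tested, with 4 called higher, 1 called lower and a median of 0.26. Among 14 relatives of the members by sequence family 9 were tested, with 3 called higher, 1 called lower and a median of 0.54. Trp63 and Trp73, the genes of the p53 family, had at most 4 counts in any sample, close to the floor of 3 counts. Cdkn2a, chosen here after its values were seen because it encodes the Mdm2 inhibitor p19Arf, was at 32.0 to 37.2 CPM in vehicle 67NR, with 753 to 938 counts. It had 0 or 1 count in each 4T1 sample of either treatment, which is below the floor of 3 counts. The counts are of the whole gene, so that they give no level of the p19Arf transcript alone.

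CIX was then compared with vehicle within 4T1 cells, the study's main comparison. Cdkn1a, Mdm2 and Trp53inp1 were lower and Phlda3 was higher in the CIX samples at an adjusted p below 0.05, while Trp53 and the remaining 4 tested members did not pass. In this fit no member was called at 0.001, where limma-voom called 9.28% of the 11677 genes tested, 5.33% higher and 3.96% lower. At that limit edgeR called 0 of the 9 members (8.79% of all genes) and DESeq2 called 3 (26.5% of all genes), and 4 of the 9 had an unadjusted limma p below 0.05 (51.1% of all genes). At 0.05 limma-voom called 4 of 9 members, 3 lower and 1 higher, next to 42.7% of all genes tested, 20.8% lower and 21.9% higher, so that the share among the members was close to that among all genes. The groups of 4T1 did not overlap for these 4 members, 1 higher and 3 lower, and for 39.9% of all genes tested, 21.2% higher and 18.7% lower.

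Cdkn1a was 3.27-fold lower in CIX 4T1 cells, with a log2 fold change of -1.71 ± 0.36 and an adjusted p of 0.00453 by limma-voom. It stayed between -2.03 and -1.42 when each sample was left out, with an adjusted p below 0.05 in 8 of 8 fits. Without samples 3 and 4 together it was at -1.72 with an adjusted p of 0.00035, which then passed the limit of 0.001 as the only member. Other limma-voom fits also called it at 0.001, together with Trp53inp1 in the common fit of all 16 samples (adjusted p = 0.000164 and 0.000672) and with Phlda3 and Trp53inp1 under sample quality weights (0.000209, 0.000953 and 0.000984). These fits called 23.0% and 21.6% of all genes. Trp53inp1 was 1.59-fold lower (-0.67 ± 0.15, adjusted p = 0.00591) and Mdm2 was 1.46-fold lower (-0.54 ± 0.13, adjusted p = 0.00878), both with an adjusted p below 0.05 in 8 of 8 fits. Without samples 3 and 4 together Trp53inp1 was at -0.72 (adjusted p = 0.0114) and Mdm2 at -0.43 (adjusted p = 0.0366). Phlda3 was 1.98-fold higher (0.98 ± 0.23, adjusted p = 0.00771), also in 8 of 8 fits, and reached 11.2 ± 3.20 CPM in the CIX samples (SD, n = 4). It was at 0.93 (adjusted p = 0.00293) without samples 3 and 4.

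The values of Gadd45a depended on sample 4. With all samples its log2 fold change was 0.68 ± 0.41 (adjusted p = 0.211), without CIX 4T1 sample 4 it was 1.10 with an adjusted p of 0.00482, and it was at 0.46 to 1.10 over the 8 fits, of which 1 passed 0.05. Without samples 3 and 4 together it was at 0.91 with an adjusted p of 0.0019. Trp53 was at -0.16 ± 0.13 (adjusted p = 0.323), Zmat3 at -0.17 ± 0.13 (0.309), Btg2 at -0.13 ± 0.39 (0.805) and Ccng1 at -0.024 ± 0.16 (0.92). The median of the 9 members was -0.16, and that of all genes was -0.0071. Among the cells' own markers, the 7 mesenchymal genes summed to 2587 to 3392 CPM in vehicle and 4521 to 5410 CPM in CIX 4T1 samples, and the 3 of them tested were all higher at an adjusted p below 0.05. The 7 epithelial genes summed to 4024 to 4433 and 4573 to 4940 CPM but did not move as one. Epcam was lower in CIX 4T1 cells (315 ± 3.14 and 186 ± 11.9 CPM, adjusted p = 0.000128), Krt7 and Krt19 were higher at 0.05 (adjusted p = 0.00529 and 0.00374), and the other 4 did not pass. Their part in the changes of the members was not tested.

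**Figure D3:**
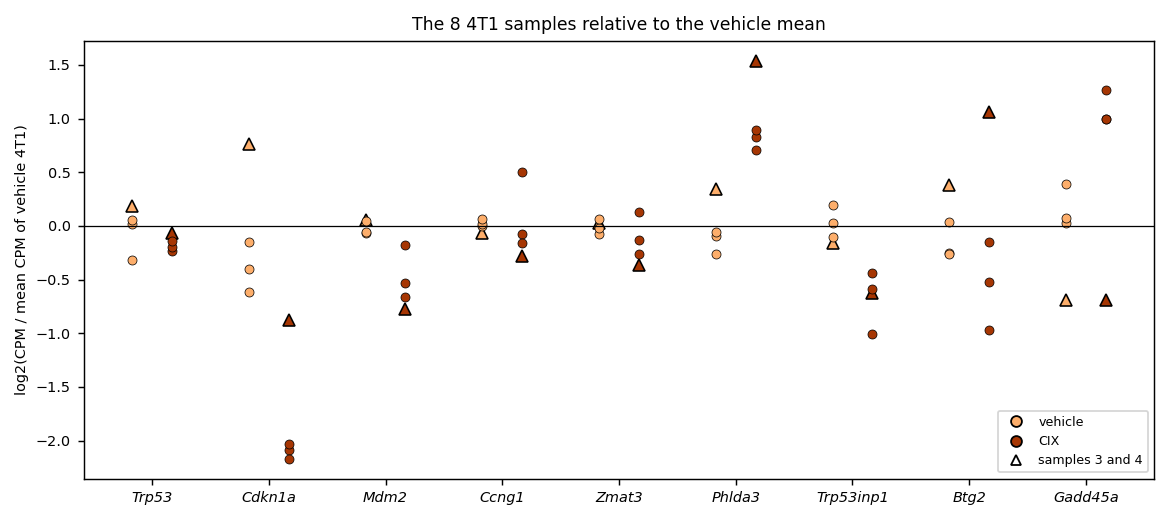
Level of 9 members in each of the 8 4T1 samples as log2 of the CPM divided by the mean CPM of vehicle 4T1 (vertical axis), with vehicle samples in light orange, CIX samples in dark orange and samples 3 and 4 as triangles. For Cdkn1a the CIX points are all below the vehicle points with sample 4 highest among them, at 43.4 CPM, and for Gadd45a samples 3 and 4 are together at the bottom, at 49.7 and 49.8 CPM.

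CIX was also compared with vehicle within 67NR cells. Gadd45a and Mdm2 were higher and Trp53 was lower in the CIX samples at an adjusted p below 0.05, and Cdkn1a did not pass. No member was called at 0.001 by limma-voom, where 0.389% of all 11583 genes tested were called. At that limit edgeR called 0 of the 10 members (0.397% of all genes) and DESeq2 called 2 (8.98% of all genes), and 5 of the 10 had an unadjusted limma p below 0.05 (32.8% of all genes). At 0.05 limma-voom called 3 of 10 members, 2 higher and 1 lower, next to 17.8% of all genes tested, 8.50% higher and 9.25% lower. The groups did not overlap for 4 of the 10 members, 3 higher and 1 lower, and for 23.3% of all genes tested, 12.7% higher and 10.6% lower.

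Gadd45a was 1.69-fold higher in CIX 67NR cells (log2 fold change 0.76 ± 0.12, limma-voom adjusted p = 0.00425), with an adjusted p below 0.05 in 8 of 8 fits that left out a sample. Trp53 was 1.28-fold lower (-0.36 ± 0.064, adjusted p = 0.00689), also in 8 of 8 fits. Mdm2 was 1.32-fold higher (0.40 ± 0.11, adjusted p = 0.0333), and it passed 0.05 in 4 of 8 fits, with a range of the adjusted p from 0.0368 to 0.0887. It no longer passed without vehicle 67NR sample 1, 5 or 9 or without CIX 67NR sample 6, and without sample 13, which stood apart, it was at 0.43 (adjusted p = 0.0368). Without that sample Gadd45a was at 0.77 (adjusted p = 0.00766) and Trp53 at -0.35 (adjusted p = 0.011). Trp53inp1 was at 0.32 ± 0.11 with groups that did not overlap and an adjusted p of 0.0839. Cdkn1a was at 0.048 ± 0.10 (adjusted p = 0.773), Phlda3 at -0.062 ± 0.084 (0.655) and Zmat3 at 0.016 ± 0.11 (0.934). Ccng1 was at -0.22 ± 0.082 (0.097), Eda2r at 0.18 ± 0.10 (0.229) and Btg2 at 0.37 ± 0.19 (0.211). The median of the 10 members was 0.11 and that of all genes was -0.0062. The 7 mesenchymal markers summed to 7225 to 8359 CPM in vehicle and 10163 to 11011 CPM in CIX 67NR samples, a sum made up mostly of Vim (5077 ± 425 and 7680 ± 460 CPM, adjusted p = 0.00133). Sparc (adjusted p = 0.00635) and Pdgfrb (0.00425) were lower, and the 5 markers tested had a median of -0.33, so that the list did not move as one. Their part was not tested.

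Whether the lines answered CIX differently was tested with an interaction term over all 16 samples. The response was lower in 4T1 than in 67NR for Mdm2 and Trp53inp1 at 0.001, and at 0.05 also for Cdkn1a, while that of Phlda3 was higher. Limma-voom called 2 of 10 members at 0.001, both lower, next to 7.86% of the 12629 genes tested, 4.81% higher and 3.06% lower. At 0.05 it called 4 of 10 members, 1 higher and 3 lower, next to 29.3% of all genes, 15.1% higher and 14.2% lower. At 0.001 edgeR called 0 of the members (8.02% of all genes) and DESeq2 called 4 (15.7%), and 4 had an unadjusted limma p below 0.05 (39.1%). Mdm2 differed by -0.95 ± 0.17 on the log2 scale (adjusted p = 0.000812), with opposite signs in the lines. Trp53inp1 differed by -0.99 ± 0.18 (adjusted p = 0.000931), Cdkn1a by -1.76 ± 0.37 (adjusted p = 0.00224) and Phlda3 by 1.04 ± 0.23 (adjusted p = 0.00352).

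Both calls at 0.001 were close to the limit. With any 1 of the 16 samples left out, the adjusted p of Mdm2 was between 0.00017 and 0.00238 and that of Trp53inp1 between 0.000842 and 0.00257, and each was called at 0.001 in 2 of 16 fits and passed 0.05 in 16 of 16. Cdkn1a and Phlda3 also passed 0.05 in 16 of 16 fits, and Cdkn1a passed 0.001 without CIX 4T1 sample 4. Without the 3 samples that stood apart, Cdkn1a was the member called at 0.001, at -1.81 with an adjusted p of 2.69e-05. Mdm2 was then at -0.86 (adjusted p = 0.00476) and Trp53inp1 at -1.09 (adjusted p = 0.00169). The difference of the responses did not pass 0.05 for Trp53 (0.19 ± 0.13, adjusted p = 0.299) or for Ccng1 (0.19 ± 0.18, 0.467), Zmat3 (-0.19 ± 0.16, 0.421) or Btg2 (-0.50 ± 0.44, 0.436). For Gadd45a the difference was -0.083 ± 0.51 (adjusted p = 0.93), and without the 3 samples it was 0.14. Eda2r is counted among the 10 but entered this fit through its level in 67NR alone. It was at or below the floor in 7 of 8 4T1 samples, so that its term carries no response of that line and none is given.

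**Figure D4:**
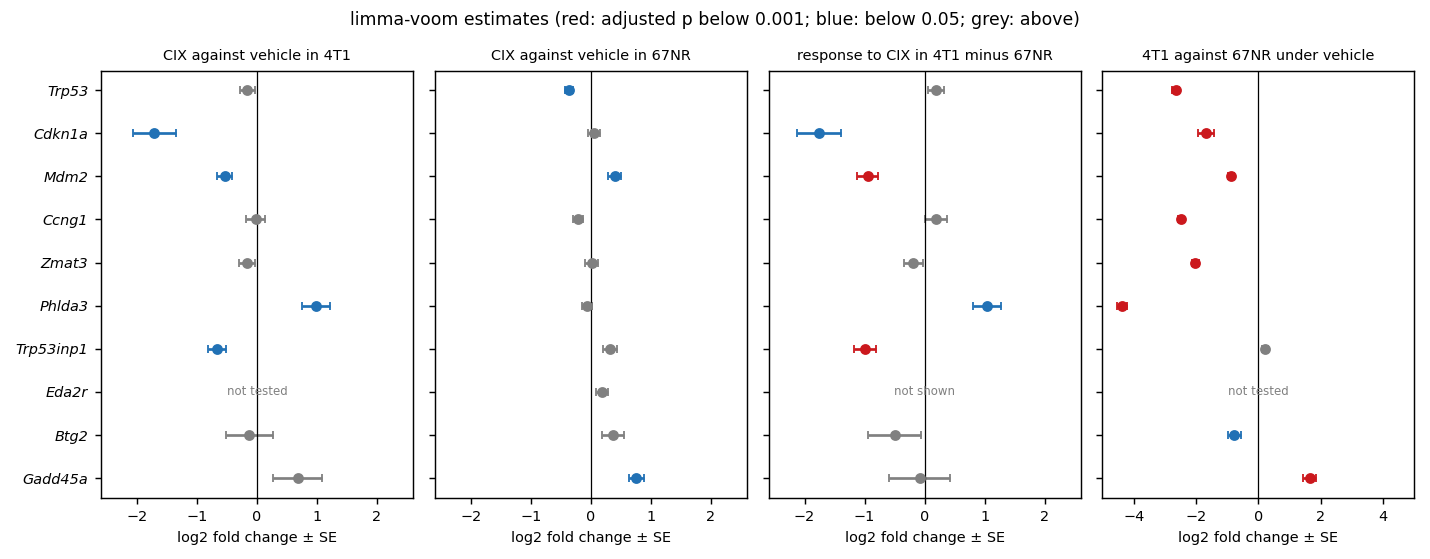
Log2 fold change ± SE of the 10 members (rows) in the 4 comparisons (panels; the right-hand panel has a wider axis), in red where the limma-voom adjusted p is below 0.001, in blue below 0.05 and in grey above. Red points stand for 7 members between the vehicle groups and for Mdm2 and Trp53inp1 in the interaction, and no red point stands in either treatment panel.

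Across the 4 groups the order of mean levels was 238 ± 10.7, 188 ± 9.99, 38.4 ± 5.50 and 34.4 ± 1.76 CPM for Trp53 in vehicle 67NR, CIX 67NR, vehicle 4T1 and CIX 4T1 cells (SD, n = 4). Neighbours in such an order were compared by a two-sided exact permutation test, 30 pairs over the 10 members. With 4 samples against 4 the smallest p it allows is 0.029, and the adjusted p over the 30 pairs was 0.0612 for every pair that reached it, so that no pair passed 0.05 after adjustment. Vehicle and CIX 4T1 overlapped for Trp53 (exact permutation p = 0.229). Mdm2 was the member whose 4 groups were all apart, with 324 ± 51.4 CPM in CIX 67NR, 240 ± 18.0 in vehicle 67NR, 132 ± 5.93 in vehicle 4T1 and 92.3 ± 17.7 in CIX 4T1 cells. For Btg2 every pair of neighbours overlapped, with means between 4.12 and 9.22 CPM. Trp53inp1 had CIX 67NR highest at 27.4 ± 4.07 CPM, then vehicle 4T1 at 25.1 ± 2.72 and vehicle 67NR at 21.5 ± 1.56, each overlapping the next, and CIX 4T1 apart at 16.0 ± 2.53 CPM.

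The genes with the pattern most like that of a member were looked up among 12628 tested genes, by the root mean square distance, over the 4 groups, of the centred group means of log2(CPM + 0.5). For Trp53 these were Ccdc9b at a distance of 0.0305, with 202, 155, 32.4 and 27.8 CPM in the order above, Clca1 at 0.0615 and Ctso at 0.0874. Clca1 was at 3.05 and 3.08 CPM in 67NR and at 0.0835 and 0.0201 CPM in 4T1 cells, below the floor in that line, so that its distance is set by the added 0.5 and its levels are not in the proportions of Trp53. For Cdkn1a they were Gm42927 at 0.0436, Bbs12 at 0.119 and 9130023H24Rik at 0.134. With 4 group means such a likeness describes the samples and rests on few points.

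Other genes of the pathway were described from the same fits. Of the 30 other p53 targets 27 were tested for CIX against vehicle in 4T1, of which 2 were called higher and 0 lower at 0.001, with 7 higher and 7 lower at 0.05 and a median of 0.16. At 0.001 edgeR called 2 higher and 0 lower, and DESeq2 called 6 higher and 7 lower, and 16 of the 27 had an unadjusted p below 0.05. Of all genes tested edgeR called 8.79%, DESeq2 called 26.5% and 51.1% had an unadjusted p below 0.05. Perp, which encodes a membrane protein of apoptosis and desmosomes, was at 42.1 ± 6.67 CPM in vehicle and 108 ± 12.5 CPM in CIX 4T1 cells (2.54-fold higher, limma-voom adjusted p = 0.000132), and had at most 7 counts in a 67NR sample. Plk2, a polo-like kinase, went from 33.6 ± 5.86 to 96.0 ± 25.7 CPM in 4T1 cells (2.77-fold higher, adjusted p = 0.000931). In 67NR cells Plk2 was at 74.1 ± 9.64 CPM with vehicle and 135 ± 36.9 CPM with CIX (adjusted p = 0.0139), and the difference between these responses did not pass (adjusted p = 0.125). Perp and Plk2 were at 1.43 and 1.76 in 4T1 without samples 3 and 4, each with an adjusted p of 0.000379, and without the 3 samples that stood apart the difference for Plk2 passed 0.05 (0.98, adjusted p = 0.0186). In 67NR 25 of the other targets were tested, with 0 called at 0.001 by limma-voom, 11 at an unadjusted p below 0.05, and 5 higher and 3 lower at an adjusted p below 0.05, while edgeR called 0 and DESeq2 called 7 at 0.001. The shares of all genes in 67NR were 0.389% at 0.001, 32.8% at the unadjusted limit, 8.50% higher and 9.25% lower at 0.05, 0.397% by edgeR and 8.98% by DESeq2.

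In the interaction 29 of the other targets were tested, but 6 of them missed the filter in 1 of the lines and so had no response there. Of the 23 that passed it in both, 1 was called higher and 1 lower at 0.001, and of the 10631 genes that passed in both 5.56% were called higher and 3.23% lower. Fas, the death receptor, was also called, but it missed the filter in 67NR cells, with 10 to 15 counts in a CIX sample, and entered the fit through 4T1 alone, so that its term is not read as a difference of responses. It was at 8.48 ± 2.04 CPM in vehicle and 16.7 ± 1.15 CPM in CIX 4T1 cells (limma-voom adjusted p = 0.00201) and at 1.20 ± 0.273 and 0.548 ± 0.0913 CPM in 67NR cells, where it was not tested. The response of Triap1, an inhibitor of apoptosis, was higher in 4T1 than in 67NR by 0.76 ± 0.13 on the log2 scale (adjusted p = 0.000675), with 9.84 ± 0.735 and 14.0 ± 0.667 CPM in 4T1 and 18.8 ± 1.06 and 15.9 ± 1.21 CPM in 67NR cells. The response of Rrm2b, the p53-inducible subunit of ribonucleotide reductase, was lower by -0.96 ± 0.17 (adjusted p = 0.000735), with 74.2 ± 11.7 and 43.3 ± 4.62 CPM in 4T1 and 37.8 ± 4.34 and 42.8 ± 2.95 CPM in 67NR cells. Without the 3 samples that stood apart the adjusted p of Rrm2b was 0.000852, and Triap1 lost its call at 0.001 (0.76, adjusted p = 0.00111). The 7 higher and 7 lower of 27 in 4T1 at 0.05 stand beside 21.9% and 20.8% of all genes, and nothing is read from such counts about the targets as a list.

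Of the 20 regulators 18 were tested in 4T1 and 1 was called at 0.001 (9.28% of all genes), Hipk2, a kinase that phosphorylates p53. It was at 47.1 ± 3.15 CPM with vehicle and 85.8 ± 11.9 CPM with CIX in 4T1 cells (1.79-fold higher, limma-voom adjusted p = 0.000687), and at 39.6 ± 7.82 and 38.9 ± 6.35 CPM in 67NR cells. It lost this call without samples 3 and 4 (0.92, adjusted p = 0.00131). In 67NR all 20 regulators were tested and limma-voom called 0 at 0.001, with 6 at an unadjusted p below 0.05 (32.8% of all genes), while edgeR called 0 and DESeq2 called 1 (8.98% of all genes). In the interaction 18 of the regulators passed the filter in both lines, and Cdkn2a was not among them. Of the 18 limma-voom called 0 at 0.001, with 5 at an unadjusted p below 0.05 (41.8% of the genes that passed in both). Over all 20 edgeR called 0 (8.02% of all genes) and DESeq2 called 2 (15.7% of all genes). Of the 14 relatives 10 were tested in 4T1 and 1 was called at 0.001 (9.28% of all genes), Trp53inp2, the autophagy gene related to Trp53inp1. It was at 66.2 ± 2.62 CPM in vehicle and 19.1 ± 2.14 CPM in CIX 4T1 cells (3.53-fold lower, adjusted p = 4.27e-05) and at 61.8 ± 7.67 and 48.7 ± 4.54 CPM in 67NR cells. Its response was lower in 4T1 than in 67NR by -1.46 ± 0.15 (adjusted p = 8.78e-06), the same direction as for Trp53inp1. Without the samples that stood apart Trp53inp2 was at -1.87 in 4T1 (adjusted p = 0.000277) and at -1.43 in the interaction (adjusted p = 1.93e-05). Of the relatives 9 were tested in 67NR, with 0 called at 0.001 by limma-voom, 0 by edgeR and 1 by DESeq2 (8.98% of all genes). At an unadjusted p below 0.05 there were 4 (32.8% of all genes).

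Pla2g4a, the gene of the inhibited enzyme, was at 95 ± 47.0 CPM in vehicle and 137 ± 35.0 CPM in CIX 4T1 cells, and at 135 ± 126 and 132 ± 30.6 CPM in 67NR cells, with 324 CPM in the highest vehicle 67NR sample. Wrap53, next to Trp53 on the chromosome, was at 13.6 to 16.4 CPM in the group means of both lines. Gadd45a overlaps the antisense gene E230016M11Rik and Cdkn1a overlaps AC167363.2 on the opposite strand, and neither partner was among the genes of the table. The library kit kept the strand, but the strand setting of the counting was not given in the sources used here, so reads from these partners cannot be told apart from those of Gadd45a and Cdkn1a.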

How the data were processed

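RNA of the 16 samples was sequenced from stranded mRNA libraries. The authors ran Salmon 0.12 (version per the submitters' processing notes) against Ensembl GRCm38 and aggregated transcripts with tximport, and the deposited values are unnormalized estimated counts for each gene. Whole-number counts were not kept, and how tximport scaled them was not given in the sources used here. They were rounded before testing. TPM was approximated with mean transcript lengths of GENCODE M21, which matched 32911 of 33072 genes, and genes below 1 TPM in more than 3 samples of a comparison were left out (for the interaction, only if this held in both lines). limma-voom with TMM scaling (limma 3.58.1, edgeR 4.0.16, R 4.3.3) was run over all genes that passed, without covariates, and p-values were adjusted by Benjamini-Hochberg over all of them. DESeq2 1.42.0, edgeR's quasi-likelihood test, other scalings and filters, sample weights, a common fit and left-out samples were the alternatives. The scripts were tested on simulated data.

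The members, the gene lists and the tests were chosen with earlier results of these data known. Named from the other lists were the genes called at 0.001 in 4T1 or in the interaction, and the 3 genes most like Trp53 and Cdkn1a. Cdkn2a, Trp63, Trp73 and the markers given singly were named outside this rule, after their values were seen. Rfwd2 was matched as Cop1 through RefSeq synonyms. Promoters were from RefSeq GRCm38.p6. The floor of 3 counts covers counting error only, whereas the SD and SE hold the spread between samples. Replicates were called biological by the study, and no 2 samples of a group agreed within sampling noise (at least 16.7 chi-square units per gene).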

Additional observations from a re-analysis of the deposited data

Results flagged for a closer look

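Among 39 sets of 4 samples (every member in every group, except Eda2r in vehicle 4T1 cells, which held a single count), 4 held a sample farther from the others than Dixon's limit for 4 samples, where chance alone gives 1.95. For Eda2r in CIX 4T1 cells 3 samples were at 0, so that any count in the fourth passes the limit, and the other 3 sets are those of Trp53, Cdkn1a and Phlda3. Trp53 was 173 CPM in CIX 67NR sample 6, and 191 to 194 CPM in the other samples of that group. Cdkn1a was 43.4 CPM in CIX 4T1 sample 4, and 17.7 to 19.5 CPM in the others. Phlda3 was 16 CPM in the same sample, and 8.97 to 10.2 CPM in the others. Eda2r was 0.214 CPM in CIX 4T1 sample 12, from 6 counts, and 0 in the others. Sample 4 was also farthest from its group in 4.36% of all genes tested.

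The response to CIX differed between the lines, by the interaction term of limma-voom, for Mdm2 (-0.95 on the log2 scale, adjusted p = 0.000812) and for Trp53inp1 (-0.99, adjusted p = 0.000931), at the limit of 0.001. With a sample left out each was called at that limit in 2 of 16 fits, and edgeR and the fit without a filter called neither, while both passed 0.05 in 16 of 16 fits. For both the CIX samples were below all vehicle samples in 4T1 and above all vehicle samples in 67NR.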

How the results depend on the processing

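Under the alternatives in their entirety the direction of the members called between the vehicle groups did not change, and the number called stayed between 6 and 8. Of all genes tested, the share called between these groups was 28.4% (no filter) to 51.9% (DESeq2) at 0.001 and 67.4% at 0.05. No paired analysis was run, because no label pairs the samples: their numbers run from 1 to 16 and no number is shared by the groups. By number the samples follow a repeating order of vehicle 67NR, CIX 67NR, vehicle 4T1 and CIX 4T1. A fit blocked by these runs was not made, since no label names them as sets. Whether samples with neighbouring numbers were handled together is not given in the sources used here, and any such batch was left out of every fit. At a limit of 0.05 the members called were 4 in 4T1, 3 in 67NR and 4 in the interaction (42.7%, 17.8% and 29.3% of all genes). DESeq2 called 3, 2 and 4 members at 0.001 in these comparisons (26.5%, 8.98% and 15.7% of all genes). The common fit of all 16 samples called 2 members in 4T1 (23.0% of all genes). Sample quality weights called 3 in 4T1 (21.6% of all genes) and 4 in the interaction (15.2%). In the interaction edgeR's quasi-likelihood test and the fit without a filter each called 0 members at 0.001 (8.02% and 3.46% of all genes). There limma-voom called 2 (7.86%). With a sample left out between 0 and 2 members were called, next to 654 to 1049 of the 12629 genes tested. Without the samples that stood apart, an alternative chosen after seeing the data, 1 member was called in 4T1 (6.76% of all genes) and 1 in the interaction (9.75%), Cdkn1a in both. The cause of these shifts was not tested.

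Reversed signs were all of members that did not pass 0.05, and ranges are over fits with a sample left out. In 4T1 Ccng1 turned from -0.024 to 0.0076 (edgeR), 0.036 (no filter), 0.051 (without sample 4, and without samples 3 and 4) and 0.023 (without sample 12; range -0.20 to 0.051), and Btg2 from -0.13 to 0.053 (edgeR), 0.047 (DESeq2), 0.0027 (without sample 3) and 0.11 (without sample 8; range -0.54 to 0.11). In 67NR Cdkn1a turned to -0.017 without sample 14 (range to 0.10), Zmat3 to -0.04, -0.034 and -0.014 without samples 9, 6 and 10 (range to 0.10), and Phlda3 to 0.0083 without sample 5 (range from -0.10). In the interaction Eda2r, whose sign rests on 6 counts in sample 12 and is not read as a response, turned to -0.63 without it (range to 0.66), and Gadd45a to 0.027 (edgeR), 0.025 (DESeq2), 0.15 (sample weights), 0.064 (without sample 11), 0.35 (without sample 4; range from -0.30) and 0.14 (without the samples that stood apart).

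Over all genes, DESeq2 called 3095 in 4T1, 1040 in 67NR and 1981 in the interaction at 0.001, against 1084, 45 and 993 by limma-voom. The common fit called 2689 and 151 in 4T1 and 67NR. Sample weights called 2522, 247 and 1914. At a median of 23961313 counts a sample, Cdkn2a in all 8 4T1 samples and Eda2r in 7 of them were at or below 3 counts.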
